A study of Mus musculus with 31 samples.

Results

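The aminoacyl-tRNA synthetases, the enzymes that join each amino acid to its transfer RNA, were followed in ribosome profiling and total RNA libraries of mouse squamous cell carcinoma cells. Members were taken by gene symbol alone, as every measured synthetase gene named for a single amino acid or for an amino acid pair, which gave 38 of the 20704 genes in the table of ribosome-protected fragments (RPF) and of the 24593 genes in the total RNA table. Of these, 21 encode cytosolic enzymes, among them Gars and Kars, whose genes also supply the mitochondrial form, and the threonyl paralogue Tarsl2. The other 17 encode enzymes of the mitochondrial matrix. All 38 passed the filter on low counts, so that every member stood among the 9457 genes tested in RPF, the 11708 tested in total RNA and the 9424 tested for the ratio of the first to the second, here called translation efficiency (TE).

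The cells carried Hras G12V. The sample labels give Tgfbr2 as floxed (fl/fl), while the study's list of materials gives it as deleted in S51 and in S51A alike. In each line the endogenous Eif2s1 gene had been ablated with CRISPR and replaced by a myc-tagged transgene under the PGK promoter. In S51 cells the transgene encoded wild-type eIF2α, and these cells can mount the integrated stress response (ISR). In S51A cells it encoded eIF2α without the serine that ISR kinases phosphorylate, so that the response is absent. Each line was given DMSO vehicle or 100 nM bortezomib, an inhibitor of the proteasome, for 4.5 h by the sample labels. The study itself describes a slightly shorter treatment. The design asks how RNA levels and ribosome occupancy change under proteasome inhibition with and without eIF2α phosphorylation. A pair of clones stood behind each genotype, and the clone of a given library was not named. The libraries of a group therefore need not be separate cultures, and p-values here measure the spread between these libraries. Each clone was grown from a single cell, so a difference between the lines by eIF2α status cannot be told apart from one between clones. RPF were available in 3 S51 vehicle libraries and in 4 libraries of each other group, total RNA in 4 libraries of every group.

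Synthetases work before the ribosome. Each enzyme charges its own transfer RNA, and an uncharged transfer RNA is what the kinase Gcn2 senses when an amino acid runs short. Gcn2 and its relatives phosphorylate eIF2α, which lowers initiation in general but raises translation of the transcription factor Atf4, and Atf4 in turn activates genes for amino acid synthesis, uptake and charging. Many cytosolic synthetase genes are commonly listed among its targets, while mitochondrial synthetase genes mostly are not. A group of 8 cytosolic enzymes (Dars, Eprs, Iars, Kars, Lars, Mars1, Qars and Rars) sits in 1 large multisynthetase complex held together by scaffold proteins, and the others act outside it.

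The element through which Atf4 acts, together with its C/EBP partners, has the form TGATGNAA, or TTNCATCA read on the other strand. RefSeq promoter windows on GRCm38.p6 (mm10), reaching from 250 bases before to 50 bases after the annotated start, were available for 28 of the 38 members. Those without an entry included Cars, Hars, Hars2, Lars, Nars, Pars2, Rars, Vars and Wars. The letters occurred on either strand in 5 of 14 cytosolic members with a window and in 0 of 14 mitochondrial ones. They occurred in 4.51% of the 27025 genes with a window. Counted by window rather than by gene, 3.97% of all 32851 windows held them. The 30 bases around 1 match in each of the 5 genes are printed 5′ to 3′ on the strand of the gene, with the motif in capitals, because each belongs to a cytosolic member whose level or change is described below. Each lay within the 250 bases before or the 50 bases after the start: for Aars on the plus strand at chr8:111033840-111033869, for Gars on the plus strand at chr6:55037960-55037989, for Iars on the plus strand at chr13:49682126-49682155, for Tars on the minus strand at chr15:11399655-11399684, and for Yars on the plus strand at chr4:129189895-129189924.
Aars: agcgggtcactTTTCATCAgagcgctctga
Gars: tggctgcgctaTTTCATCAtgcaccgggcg
Iars: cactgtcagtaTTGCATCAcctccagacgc
Tars: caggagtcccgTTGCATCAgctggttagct
Yars: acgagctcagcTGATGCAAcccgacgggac
The first base of the printed motif stood 30 bases before the start in Gars and 15 before it in Tars. It stood 9 bases after the start in Aars, 7 after it in Iars and 3 after it in Yars. In Aars and Yars the start of the window is not the outermost annotated one. The annotated genes begin upstream of it, at chr8:111027778 and chr4:129189734. Yars carried the motif on the strand of the gene and the others on the opposite strand. A match of letters is a description and not evidence of binding, and the motif was chosen with the values of these genes known.

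RPF libraries held between 1038826 and 4902237 counts (median 2433494) and total RNA libraries between 18758668 and 22994713. Levels below are counts scaled to a common library size (CPM), with scaling factors from the trimmed mean of M-values. RPF replicate 2 of S51 vehicle stood apart from its group. Over the 3581 genes of higher RPF level, its median absolute log2 difference from the mean of the group's other libraries was 0.363. This measure was 0.158 and 0.226 in the other S51 vehicle libraries, for which that mean included replicate 2. In the 12 RPF libraries of the other groups it was 0.0649 to 0.122. Replicate 2 of S51 vehicle held the lowest value of its group in 12 of 21 cytosolic members and the highest in 8. The results below that use this library are followed by their values without it, as single values or as counts over a group of genes. Eif2s1 counts do not separate the transgenes from each other or from the ablated gene: RPF over Eif2s1 ran from 81.2 to 171 CPM in S51 vehicle and from 213 to 260 CPM in S51A vehicle. Keratinocyte markers summed to between 11806 and 12434 CPM of total RNA in S51 vehicle and to between 14377 and 16864 CPM in the other groups, while fibroblast, immune, endothelial and melanocyte markers each stayed at or below 7.32 CPM, and the part of this difference in the results was not tested. In bulk libraries of this kind, fewer cells and less RNA per cell cannot be told apart.

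Per kilobase of counted coding sequence, ribosome occupancy of the members spanned more than 2 orders of magnitude in S51 vehicle cells. Asparaginyl-tRNA synthetase Nars had the highest level at 631 ± 61.3 RPF CPM per kilobase (SD, n = 3), followed by glycyl-tRNA synthetase Gars at 367 ± 45.0. Sars at 267 ± 18.6 and Kars at 267 ± 22.7 came next and could not be ordered, since their ranges overlapped, and Aars stood at 221 ± 14.7. From Tars at 168 ± 19.3 down to Rars at 136 ± 31.3, each neighbour in the order overlapped the next. With RPF replicate 2 of S51 vehicle left out, mean levels of the members lay between 0.790 and 1.14 times those over all 3 libraries. Nars at 666 and Gars at 393 then remained the first pair, and Kars, between 268 and 289, lay above Sars, between 251 and 263.

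Mitochondrial enzymes lay lower. Yars2 was the highest of them at 56.4 ± 8.55 RPF CPM per kilobase, within the range of the 2 lowest standard cytosolic members, Wars at 58.2 ± 6.65 and Iars at 53.3 ± 2.86. The lowest was Lars2 at 3.41 ± 0.876. Tarsl2, at 5.98 ± 1.10, was the cytosolic member that lay deep among the mitochondrial levels, and it overlapped Pars2 at 6.12 ± 1.15 and Fars2 at 6.04 ± 0.717. Without RPF replicate 2 Yars2 lay between 50.2 and 52.9, overlapping Wars but below both Iars libraries, and Lars2 was still the lowest at 3.29. Tarsl2 and Tars are paralogues, and by the column names of the tables only reads that mapped to a single place were counted, so stretches shared by both give neither gene reads.

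**Figure D1:**
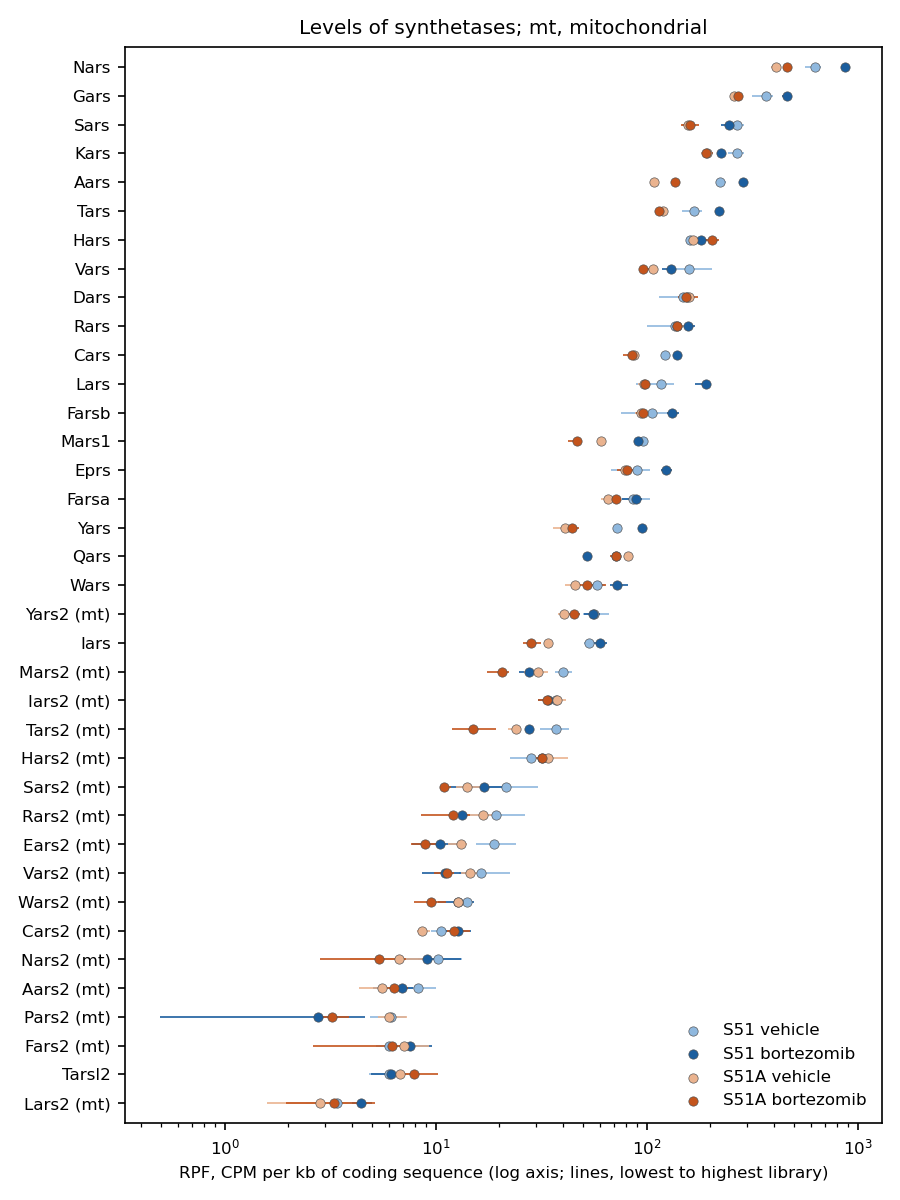
Ribosome occupancy of the synthetases, 1 mitochondrial member left out, as RPF CPM per kilobase of counted coding sequence on a log axis, with points for the group means and lines from the lowest to the highest library. In S51 vehicle Nars is highest at 631 and Lars2 lowest at 3.41, and every mitochondrial enzyme but Yars2 lies below every cytosolic one but Tarsl2.

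As a share of all counts in a library, the 21 cytosolic synthetases took 0.729% ± 0.0327 of RPF in S51 vehicle (SD, n = 3) and 0.855% ± 0.0151 in S51 bortezomib (n = 4). In S51A the share was 0.526% ± 0.0136 with vehicle and 0.530% ± 0.00532 with bortezomib (n = 4 each). The S51 groups did not overlap each other or the S51A groups, while the S51A groups overlapped. Total RNA ran the same way in S51, at 0.553% ± 0.00623 with vehicle and 0.621% ± 0.0104 with bortezomib. In S51A it stood at 0.409% ± 0.00733 and 0.394% ± 0.00663, lower with bortezomib and without overlap. Shares use raw library totals without scaling factors, and this direction depended on that. With the factors, 7 cytosolic members rose and 3 fell in S51A total RNA, with a median log2 change of 0.06. The 17 mitochondrial synthetases took 0.0652% ± 0.00554 of RPF in S51 vehicle and 0.0548% ± 0.000655 in S51 bortezomib, and 0.0547% ± 0.00188 and 0.0454% ± 0.00186 in S51A vehicle and bortezomib. Their share was therefore lower with bortezomib in both lines, with no overlap between treatments. When RPF replicate 2 of S51 vehicle was omitted, the shares of the other 2 libraries were 0.741% and 0.754% for the cytosolic members and 0.0612% and 0.0630% for the mitochondrial ones.

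Without bortezomib, cytosolic synthetases were lower in ISR-null cells. In vehicle-treated cells, 13 of 21 cytosolic members had fewer RPF in S51A than in S51 by edgeR's quasi-likelihood test (Benjamini-Hochberg adjusted p below 0.05) and 0 had more (1 at raw p below 0.05, 0 by DESeq2), against 13.8% of all genes tested that were lower and 14.8% that were higher. The median log2 difference of the cytosolic members was −0.47, beside 0.01 over all genes. Of the 13 members commonly listed as Atf4 targets 11 were lower (median −0.56), and of the 7 not so listed 2, Farsa and Kars, were lower (median 0.03). The leucyl and glutamyl-prolyl enzymes, Lars (−0.27 ± 0.11, adjusted p = 0.0677) and Eprs (−0.19), were the listed members that missed the threshold. Both passed without RPF replicate 2 of S51 vehicle (−0.43 and −0.36), as did Farsb (−0.38), while Farsa (−0.22, adjusted p = 0.0665) and Wars (−0.26, adjusted p = 0.0970) were lost, and 12 of the 13 listed members were lower (median −0.59).

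Alanyl-tRNA synthetase Aars showed the largest cytosolic difference. Its RPF stood at 608, 679 and 605 CPM in the S51 vehicle libraries and at 307, 318, 305 and 307 CPM in the S51A vehicle libraries. No value of one line reached the other, and the log2 difference was −1.03 ± 0.07 (SE, adjusted p = 1.70e-09), a level 2.04-fold lower in S51A. Tyrosyl-tRNA synthetase Yars followed, with 108, 114 and 110.0 CPM in S51 and 68.7, 65.5, 55.2 and 62.5 CPM in S51A (−0.81 ± 0.10, adjusted p = 1.93e-06). Seryl-tRNA synthetase Sars, which acts outside the complex like Aars and Yars, gave 408, 446 and 389.6 CPM against 253, 262, 227 and 228 CPM (−0.77 ± 0.09, adjusted p = 1.29e-06). The S51 and S51A libraries were apart for each of these genes. Without RPF replicate 2 of S51 vehicle the differences were −0.97, −0.79 and −0.72, and over the cytosolic members 14 were lower and 1, Qars (0.21, adjusted p = 0.0485), was higher. Outside the multisynthetase complex 10 of 13 members were lower, and within it 3 of 8, namely Mars1 (−0.67), Iars (−0.65) and Kars (−0.47). Without the same library these counts were 9 of 13 and 5 of 8, the added members of the complex being Lars and Eprs.

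Total RNA followed the same direction in more genes. In vehicle-treated cells 18 of 21 cytosolic members had less RNA in S51A and 1, Hars (0.09), had more, beside 32.4% of all genes lower and 31.4% higher, and the median was −0.42. All 13 members listed as Atf4 targets were lower. Aars RNA was 383, 397, 371 and 383 CPM in S51 and 205, 201, 203 and 203 CPM in S51A (−0.92 ± 0.03, adjusted p = 7.22e-17). Yars RNA fell from 79.2, 73.5, 73.2 and 71.8 CPM to 48.3, 46.3, 43.1 and 48.1 CPM (−0.68 ± 0.05). Methionyl-tRNA synthetase Mars1 gave 137, 134, 135 and 134 CPM in S51 and 83.9, 84.2, 86.4 and 85.4 CPM in S51A (−0.67 ± 0.04, adjusted p = 6.59e-14). For these 3 genes the spread within a line was small beside the gap between lines, and no libraries overlapped.

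Among mitochondrial enzymes, 6 of 17 had fewer RPF in S51A vehicle and 0 had more (0 at raw p below 0.05 and 0 by DESeq2), with a median of −0.20. Over all genes 13.8% were lower and 14.8% higher. The threonyl enzyme Tars2 stood at 79.4, 90.9 and 65.97 CPM in S51 and 52.8, 46.7, 51.5 and 51.9 CPM in S51A, without overlap (−0.63 ± 0.13, adjusted p = 0.00122). The alanyl enzyme Aars2 held 18.4, 29.01 and 23.6 CPM against 21.03, 15.2, 12.4 and 15.2 CPM, and its groups overlapped (−0.57 ± 0.19, adjusted p = 0.0281). The mitochondrial RPF count rested on the library that stood apart. Without RPF replicate 2 of S51 vehicle, 2 of 17 were lower, Tars2 (−0.52, adjusted p = 0.00130) and Yars2 (−0.33, adjusted p = 0.0146). Without any 1 of the 4 S51A vehicle libraries 3 were. Counts of 2 or 3 are close to the share of all genes given above. In total RNA 10 of 17 were lower and 2, Vars2 (0.16) and Hars2 (0.11), were higher, beside 32.4% of all genes lower and 31.4% higher. Nars2 RNA fell from 17.8, 19.96, 16.3 and 20.3 CPM in S51 to 11.3, 11.8, 12.04 and 12.2 CPM in S51A (−0.65 ± 0.09), and Tars2 RNA from 80.5, 79.6, 76.6 and 82.8 CPM to 57.9, 60.2, 59.1 and 55.2 CPM (−0.46 ± 0.04). Neither overlapped between lines.

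**Figure D2:**
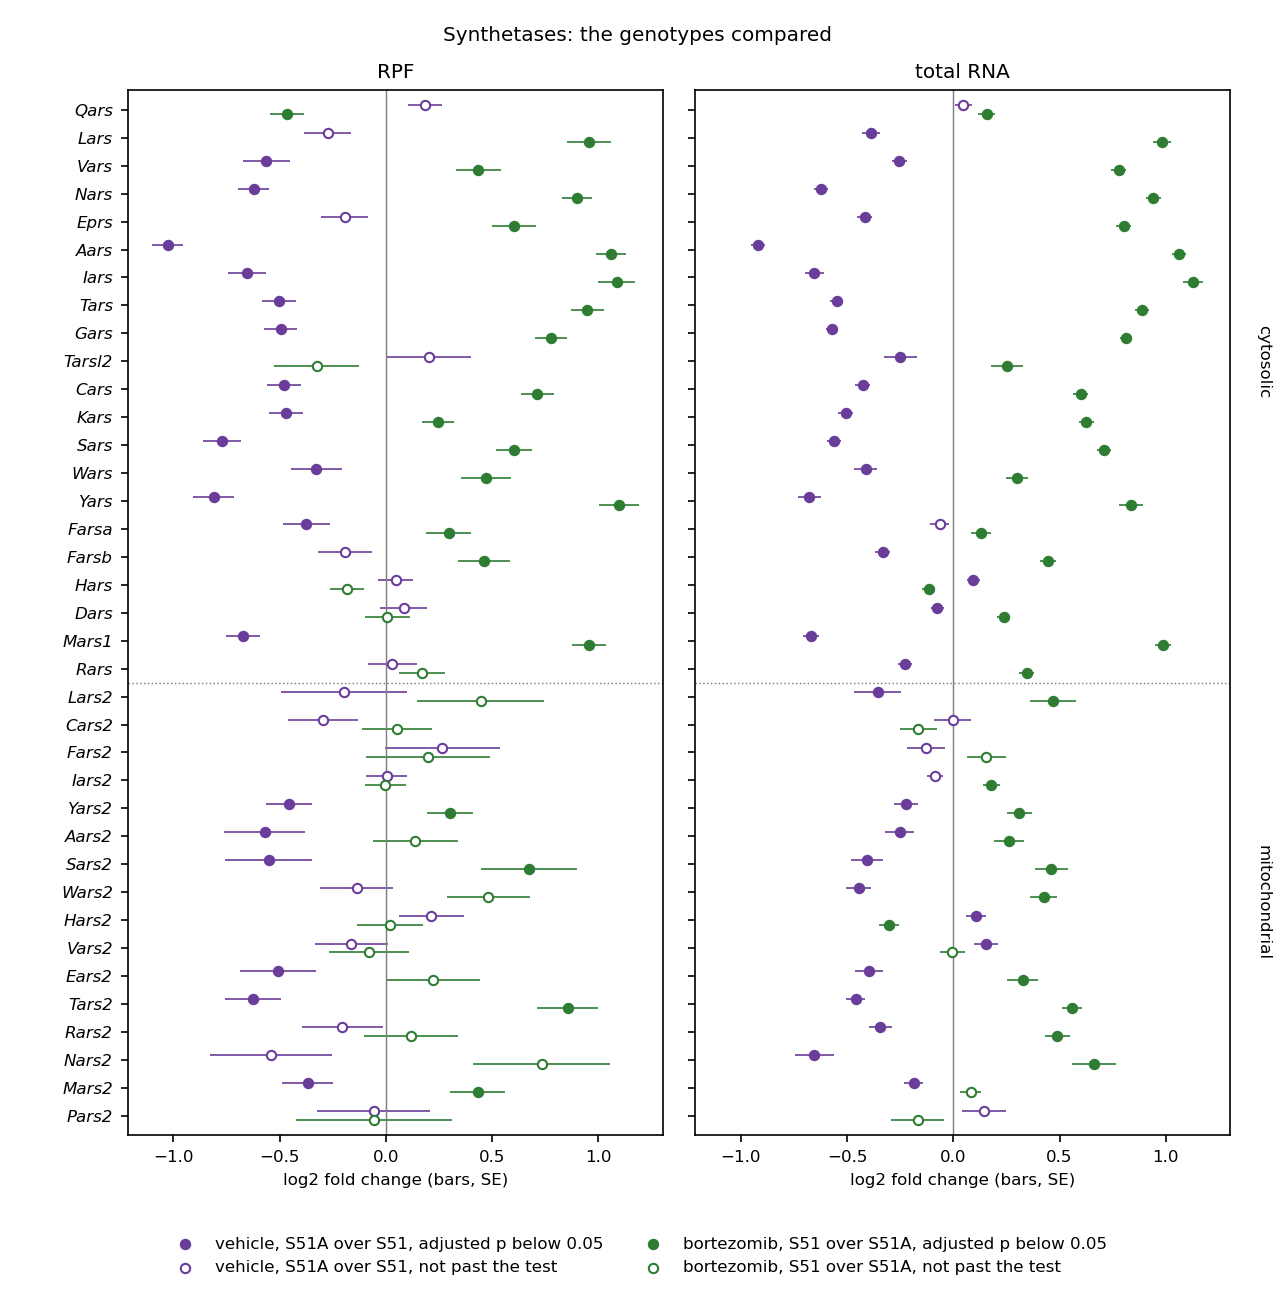
Log2 difference between genotypes for the synthetases, 1 mitochondrial member left out, with its standard error, in RPF and in total RNA, for vehicle (S51A over S51) and for bortezomib (S51 over S51A). Aars lies furthest from zero among cytosolic members in vehicle, at −1.03 in RPF. There 13 of 21 cytosolic members were past the test, all lower in S51A, beside 13.8% of all genes lower and 14.8% higher.

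After bortezomib, most cytosolic synthetases were higher in ISR-competent cells. The comparison is given here as S51 over S51A, and 16 of 21 cytosolic members had more RPF in S51 while 1, the glutaminyl enzyme Qars, had fewer, beside 14.9% of all genes higher and 16.6% lower. The median log2 difference was 0.60, beside −0.01 over all genes. All 13 members listed as Atf4 targets were higher (median 0.90), against 3 of the 7 not so listed (median 0.17), which were Farsa (0.30), Farsb (0.46) and Kars (0.25).

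Yars held 144, 143, 146 and 149.6 RPF CPM in S51 bortezomib and 72.2, 64.3, 61.9 and 72.7 CPM in S51A bortezomib, a difference of 1.10 ± 0.09 (adjusted p = 1.31e-08). Isoleucyl-tRNA synthetase Iars gave 207, 225, 222 and 243 CPM against 117, 104, 97.3 and 102 CPM (1.09 ± 0.09, adjusted p = 5.07e-09). Aars gave 777, 861, 789.8 and 828 CPM against 371, 404, 378 and 407 CPM (1.06 ± 0.07, adjusted p = 3.38e-10). Each of the 3 was about 2.09- to 2.14-fold higher in S51, and the libraries of the lines were far apart. Qars, by contrast, held 114, 123, 116 and 119.9 CPM in S51 bortezomib and 153, 162, 167 and 170.2 CPM in S51A bortezomib (−0.47 ± 0.08, adjusted p = 0.000117), with the S51 libraries all below the S51A ones.

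In total RNA 20 of 21 cytosolic members were higher in S51 bortezomib and 1, Hars (−0.12), was lower, with a median of 0.71, beside 32.4% of all genes higher and 33.3% lower. Iars RNA was 152, 152, 144 and 149.9 CPM in S51 and 68.8, 66.5, 65.2 and 73.2 CPM in S51A (1.13 ± 0.05, adjusted p = 4.35e-16). Aars RNA was 479, 505, 520.5 and 511 CPM and 238, 248, 229 and 249.7 CPM (1.06 ± 0.03), and Mars1 RNA was 133, 138, 133 and 130.1 CPM and 71.3, 69.3, 64.4 and 64.5 CPM (0.99 ± 0.04). Values of the lines did not overlap for any of these. Qars had slightly more RNA in S51 bortezomib (0.16 ± 0.04, adjusted p = 0.00127) although it had fewer RPF. For Hars the total RNA differences had the opposite sign to those of the other cytosolic members past the test, with both treatments. Hars lies next to Hars2 in divergent orientation. On chromosome 18 Hars reaches to 36783205 and Hars2 begins at 36783202, so the annotated genes share only their outermost bases. The strand setting of the counting was not given in the sources used here, so reads over those bases cannot be told apart. Hars RPF averaged 266 CPM in S51 and 301 CPM in S51A with bortezomib, and 236 and 244 CPM with vehicle, neither difference past the test.

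Mitochondrial enzymes were higher in S51 bortezomib in 4 of 17 cases in RPF and lower in 0 (0 at raw p below 0.05 and 0 by DESeq2; median 0.20). In total RNA 11 of 17 were higher (median 0.26) and 1, Hars2 (−0.30), was lower. Over all genes 14.9% were higher and 16.6% lower in RPF, and 32.4% were higher and 33.3% lower in total RNA. Tars2 held 58.95, 59.3, 57.5 and 57.7 RPF CPM in S51 and 40.9, 31.2, 30.2 and 25.1 CPM in S51A (0.86 ± 0.14, adjusted p = 9.34e-05). The seryl enzyme Sars2 held 17.5, 22.96, 27.99 and 33.05 CPM and 15.8, 16.1, 17.7 and 15.9 CPM, with overlap (0.67 ± 0.23, adjusted p = 0.0267). The RPF count became 1 without replicate 1 of S51A bortezomib, and 2 without replicate 3 of S51 bortezomib or replicate 2 or 4 of S51A bortezomib. Counts of 1 or 2 are no higher than the share of all genes given above. Nars2 RNA was 10.4, 13.3, 10.5 and 12.7 CPM in S51 and 7.05, 6.45, 7.37 and 8.80 CPM in S51A (0.66 ± 0.10). Tars2 RNA was 56.96, 51.3, 54.6 and 54.5 CPM and 39.2, 36.9, 36.03 and 35.1 CPM (0.56 ± 0.05). Both were apart between lines.

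The responses to bortezomib within each line use the same libraries as the genotype comparisons, and are given beside them without being independent of them. In ISR-competent S51 cells, RPF rose after bortezomib in 7 of 21 cytosolic members, all of them listed as Atf4 targets: Lars, Nars, Eprs, Yars, Tars, Aars and Gars. RPF fell in 2, Qars and Kars, both not so listed. That share is to be read against 14.8% of all genes that rose and 16% that fell, and the median was 0.20, beside 0.00 over all genes. In total RNA 18 of 21 rose and 0 fell (0 at raw p below 0.05 and 0 by DESeq2), with a median of 0.25, where 29.7% of all genes rose and 30.2% fell.

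Leucyl-tRNA synthetase Lars rose most in RPF. It held 440.3, 308 and 469 CPM in S51 vehicle and 587, 687, 688 and 698 CPM in S51 bortezomib. Every treated library was above every vehicle library, and the log2 change was 0.71 ± 0.11 (adjusted p = 5.62e-05). The lowest vehicle value belonged to replicate 2, and without that library the change was 0.55 (adjusted p = 7.83e-07). Nars, the member with the highest occupancy, rose from 1071, 891 and 1047 CPM to 1357, 1424, 1327 and 1399 CPM (0.46 ± 0.07, adjusted p = 7.73e-05). Qars fell from 159.8, 169 and 161 CPM to 114, 123, 116 and 119.9 CPM (−0.46 ± 0.08, adjusted p = 0.000248). With RPF replicate 2 of S51 vehicle left out, Nars changed by 0.38 and Qars by −0.44, and over the cytosolic members 8 rose and 2 fell. The groups were apart for both genes, and Qars was the member whose RPF and RNA moved in opposite directions with both changes past the test, together with Kars.

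In total RNA Qars rose from 118, 115, 112 and 125 CPM with vehicle to 179, 193, 179 and 180.1 CPM with bortezomib (0.64 ± 0.04, adjusted p = 1.39e-12). Lars RNA rose from 324, 328, 326 and 341 CPM to 448, 488, 517 and 513 CPM (0.58 ± 0.04). Valyl-tRNA synthetase Vars rose from 181, 169, 168 and 171 CPM to 244, 255, 249.7 and 232 CPM (0.51 ± 0.04). None of these groups overlapped. Outside the multisynthetase complex RNA rose in all 13 members, and within it in 5 of 8. The cytosolic members that did not pass were Mars1 (−0.01), Rars (−0.04) and Dars (0.07). The smaller increases depended on how the libraries were scaled: on library sizes alone, with no trimmed-mean factors, the median of all genes moved to −0.16 and 11 cytosolic members rose while 3 fell, and over all genes the share of calls that were increases went from 49.6% to 25.99%. Relative to that shift the cytosolic median of 0.10 remained above that of all genes.

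The mitochondrial synthetases went the other way in S51. RPF fell in 5 of 17 and rose in 0 (0 at raw p below 0.05 and 0 by DESeq2; median −0.21), and RNA fell in 11 and rose in 1, Lars2 (0.34), with a median of −0.24. The RPF median depended on the library that stood apart: without RPF replicate 2 of S51 vehicle it was −0.08, and 4 members fell. Over all genes 16% fell and 14.8% rose in RPF, and 30.2% fell and 29.7% rose in total RNA. Prolyl enzyme Pars2 was rare in RPF, at 10.6, 7.25 and 9.21 CPM with vehicle and 0.728, 3.83, 6.81 and 5.04 CPM with bortezomib, the lowest of which was 1 count (−0.99 ± 0.34, adjusted p = 0.0295). Glutamyl enzyme Ears2, which in mitochondria also starts the route to glutaminyl-tRNA, fell from 26.6, 36.3 and 23.4 CPM to 16.01, 15.3, 11.7 and 20.7 CPM (−0.84 ± 0.21, adjusted p = 0.00362). Both were without overlap, and without RPF replicate 2 of S51 vehicle their changes were −1.09 and −0.67. The others that fell were Vars2, Mars2 and Tars2, of which Vars2 (−0.33, adjusted p = 0.115) and Tars2 (−0.31, adjusted p = 0.0725) were lost without RPF replicate 2 of S51 vehicle, while Mars2 (−0.45) was kept and Rars2 (−0.72, adjusted p = 0.00436) was gained. The count was 3 without replicate 1 of S51 vehicle, or without replicate 3 or 4 of S51 bortezomib. A count of 3 is close to the share of all genes given above. In total RNA Pars2 fell from 8.66, 9.28, 7.99 and 7.62 CPM to 4.39, 3.76, 5.64 and 4.96 CPM (−0.84 ± 0.12), and methionyl enzyme Mars2 from 62.4, 64.1, 61.8 and 66.3 CPM to 37.8, 36.95, 39.7 and 36.4 CPM (−0.75 ± 0.05). The vehicle and bortezomib libraries of these genes were apart.

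**Figure D3:**
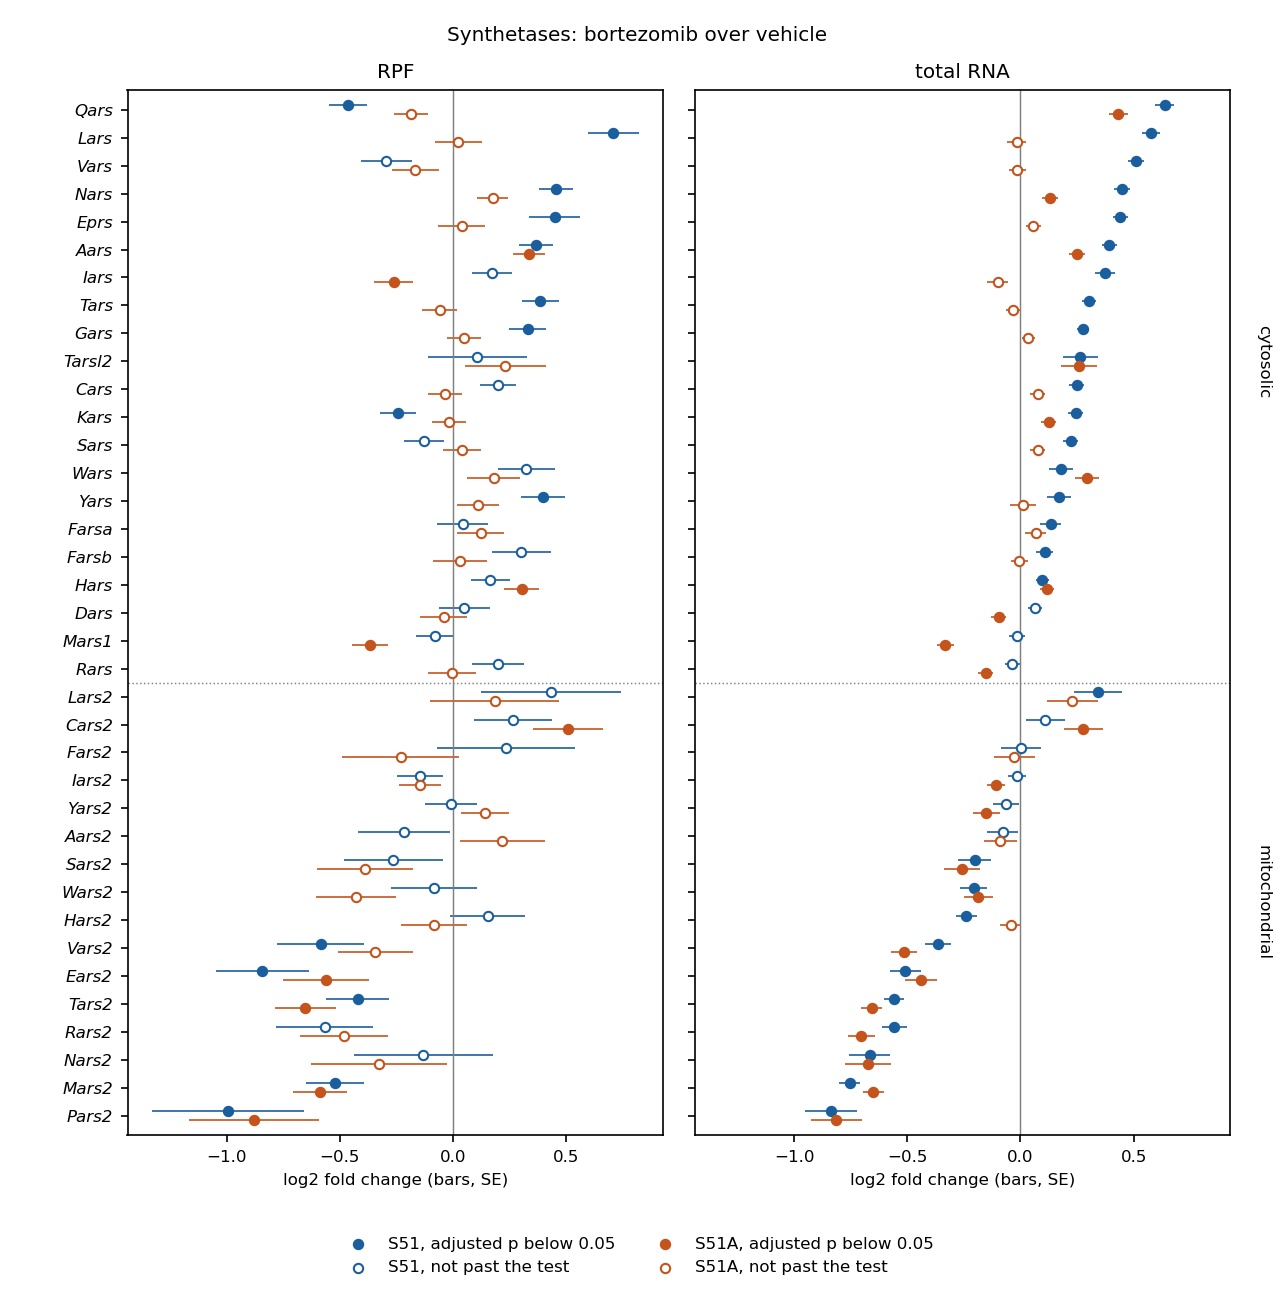
Log2 change after bortezomib for the synthetases, 1 mitochondrial member left out, in S51 and in S51A with its standard error, in RPF and in total RNA. In S51 total RNA 18 of 21 cytosolic members rose, beside 29.7% of all genes, and 11 of 17 mitochondrial members fell, beside 30.2%. In S51A total RNA 7 of 21 cytosolic members rose and 3 fell, where 27.5% of all genes rose and 28.9% fell.

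In ISR-null S51A cells, cytosolic synthetases moved in both directions. RPF rose in 2 of 21 cytosolic members, Aars and Hars, and fell in 2, Mars1 and Iars, beside 9.25% of all genes that rose and 11.4% that fell, shares close to the members' own, and the median was 0.03. Mars1 fell from 157, 168, 161 and 161 CPM with vehicle to 131, 127, 113 and 129 CPM with bortezomib (−0.37 ± 0.08, adjusted p = 0.00163). Aars rose from 307, 318, 305 and 307 CPM to 371, 404, 378 and 407 CPM (0.33 ± 0.07, adjusted p = 0.00145), beside a change of 0.37 in S51, or 0.42 there without RPF replicate 2 of S51 vehicle. Hars rose from 228, 252, 255 and 241 CPM to 305, 296, 325 and 279.7 CPM (0.30 ± 0.08, adjusted p = 0.00756). Each of the 3 was apart between treatments. Iars (−0.26 ± 0.09, adjusted p = 0.0323) was close to the threshold.

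Total RNA in S51A rose in 7 of 21 cytosolic members and fell in 3 (median 0.06), beside 27.5% of all genes that rose and 28.9% that fell. On library sizes alone 3 rose and 9 fell, and the share of increases among all calls went from 48.8% to 27.7%. Qars rose from 125, 119.7, 120.4 and 121 CPM to 165, 173, 154 and 164 CPM (0.43 ± 0.04, adjusted p = 1.96e-09). Mars1 fell from 83.9, 84.2, 86.4 and 85.4 CPM to 71.3, 69.3, 64.4 and 64.5 CPM (−0.33 ± 0.04, adjusted p = 5.15e-08). Tryptophanyl-tRNA synthetase Wars rose from 38.4, 39.1, 35.9 and 38.99 CPM to 45.3, 45.2, 44.3 and 51.99 CPM (0.29 ± 0.05). No groups overlapped. Mars1 thus fell in S51A in both kinds of library, while in S51 its change was −0.08 in RPF and −0.01 in total RNA, neither past the test.

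Mitochondrial enzymes in S51A were mostly lower with bortezomib. RPF fell in 5 of 17 (median −0.34) and rose in 1, Cars2 (0.51 ± 0.15, adjusted p = 0.0226), and total RNA fell in 12 and rose in 1, again Cars2 (0.28). Over all genes 11.4% fell and 9.25% rose in RPF, and 28.9% fell and 27.5% rose in total RNA. Cars2 RPF held 14.02, 14.99, 13.3 and 12.98 CPM with vehicle and 23.2, 18.03, 18.2 and 18.6 CPM with bortezomib, without overlap, and replicate 1 was the high treated library. Its increase was lost without that library (0.40, adjusted p = 0.107) and without replicate 4 of S51A vehicle (0.47, adjusted p = 0.0694), which left 0 mitochondrial members that rose. On library sizes alone the Cars2 RNA change was 0.16 (adjusted p = 0.113), and 14 mitochondrial members fell and 0 rose. Pars2 RPF fell from 7.94, 8.87, 10.8 and 7.91 CPM to 5.15, 3.90, 5.72 and 4.26 CPM (−0.88 ± 0.29, adjusted p = 0.0335). Tars2 RPF fell from 52.8, 46.7, 51.5 and 51.9 CPM to 40.9, 31.2, 30.2 and 25.1 CPM (−0.65 ± 0.14, adjusted p = 0.00131). Both changed without overlap. The 6 RPF calls became 2 without replicate 1 of S51A bortezomib, 3 without replicate 2 or 4 of S51A bortezomib or replicate 3 or 4 of S51A vehicle, and 3 by DESeq2. In each of these fits 2 or 3 members fell, close to the share of all genes given above. In total RNA Pars2 fell from 8.90, 10.5, 9.28 and 8.32 CPM to 5.41, 5.61, 4.53 and 5.44 CPM (−0.81 ± 0.11). The arginyl enzyme Rars2 fell from 36.6, 35.5, 33.8 and 39.03 CPM to 24.2, 20.9, 23.6 and 20.5 CPM (−0.70 ± 0.06). Their treated libraries lay wholly below their vehicle libraries, and the corresponding S51 changes were −0.84 and −0.56.

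Whether the response itself differed between lines was tested as the S51 response minus the S51A response. In RPF 2 of 21 cytosolic members passed, both higher, beside 1.04% of all genes higher and 1.31% lower. Of 17 mitochondrial members 0 passed (0 at raw p below 0.05, and 0 of the 13 tested by DESeq2). At raw p below 0.05 the cytosolic counts were 9 higher and 1 lower, and DESeq2 called 3 higher and 0 lower. On library sizes alone 3 were called higher, and the share of higher among all calls went from 44.1% to 54.7%. Lars changed by 0.71 in S51 and by 0.02 in S51A, where its libraries held 319.6, 350.3, 317 and 359 CPM with vehicle and 352, 362, 331 and 324 CPM with bortezomib and overlapped. The difference was 0.68 ± 0.15 (adjusted p = 0.0173), and 0.53 (adjusted p = 0.000646) without RPF replicate 2 of S51 vehicle, where Iars (0.39, adjusted p = 0.0379) was called as well.

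Threonyl-tRNA synthetase Tars held 385, 309 and 372 RPF CPM in S51 vehicle and 453, 466, 465 and 476 CPM in S51 bortezomib. In S51A it held 246, 245, 255 and 258 CPM and 244, 238, 245 and 237 CPM. The S51 libraries were apart by treatment, and the S51A libraries overlapped. The difference of 0.44 ± 0.11 (adjusted p = 0.0360) was 0.36 (adjusted p = 0.0164) without RPF replicate 2 of S51 vehicle, and was lost in 11 of 21 alternative analyses, while that of Lars was kept in all 21. The count of cytosolic members called was 1 without any 1 of replicates 2, 3 and 4 of S51 bortezomib, any of the 4 S51A vehicle libraries, or replicates 2, 3 and 4 of S51A bortezomib.

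**Figure D4:**
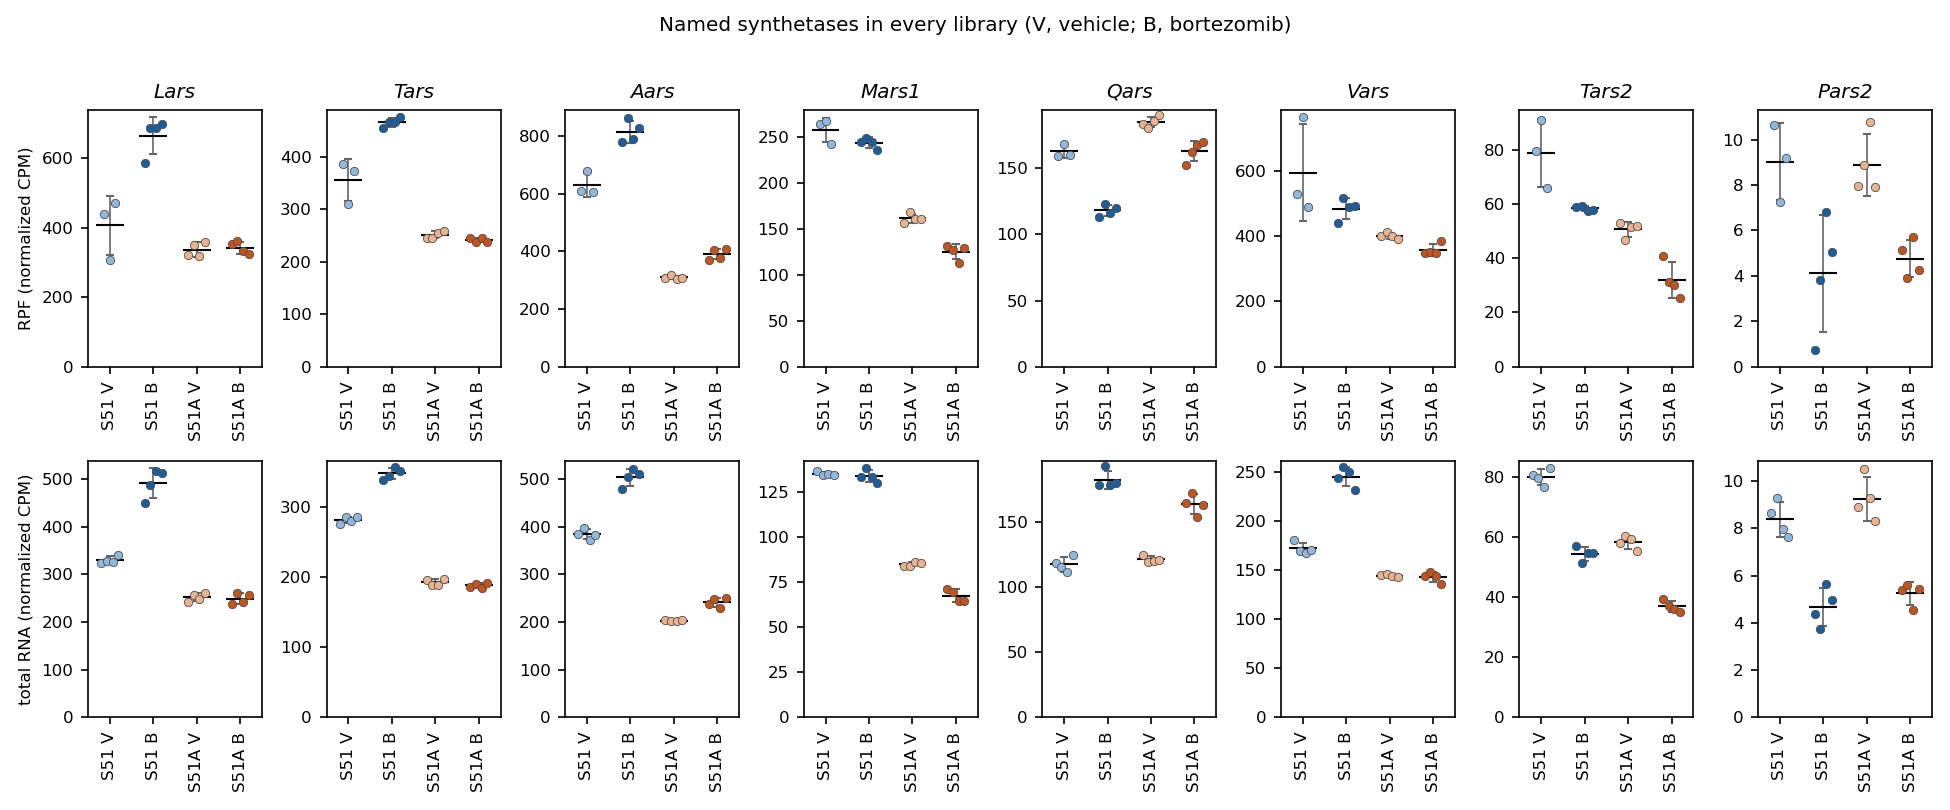
CPM of 8 named synthetases in every library, by genotype and treatment, in RPF (top) and total RNA (bottom), with 1 point a library, a black bar at the group mean and a grey bar of 1 SD. Lars and Tars RPF rose with bortezomib in S51 and overlapped between treatments in S51A, while Aars was higher with bortezomib in both lines.

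More differences were called in the deeper total RNA libraries. There 13 of 21 cytosolic members had a higher response in S51 and 0 a lower one (16 and 0 at raw p below 0.05, 15 and 0 by DESeq2), against 12% of all genes higher and 9.58% lower, and the median difference was 0.16. Of the 13 members listed as Atf4 targets 11 passed (median 0.32), and of the 7 not so listed Qars and Dars did. On library sizes alone 10 passed, and the share of higher among all calls went from 55.6% to 39.8%. Lars had the largest difference at 0.59 ± 0.06 (adjusted p = 2.60e-07), with S51A libraries at 241, 257, 249 and 261 CPM with vehicle and 238, 261, 241 and 256 CPM with bortezomib. Vars followed at 0.53 ± 0.05 (adjusted p = 2.06e-07), with S51A libraries at 145, 146, 144 and 143 CPM and 144, 148, 144 and 135 CPM. Both overlapped between treatments in S51A and were apart in S51.

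Iars RNA went from 113, 118, 110.1 and 121 CPM to 152, 152, 144 and 149.9 CPM in S51, and from 70.3, 71.01, 71.02 and 81.2 CPM to 68.8, 66.5, 65.2 and 73.2 CPM in S51A. Eprs, the fused enzyme for glutamate and proline, went from 513, 522, 498 and 514 CPM to 666, 691, 715 and 708 CPM in S51, and from 385, 382, 368 and 398 CPM to 379, 414, 392 and 409 CPM in S51A. The S51 libraries were apart for both and the S51A libraries overlapped, with differences of 0.47 ± 0.07 and 0.38 ± 0.05. Tars (0.34 ± 0.04) went from 276, 285, 280.3 and 285 CPM to 338, 344, 357 and 351 CPM in S51, and from 196, 188, 188 and 198 CPM to 186, 190.0, 184 and 192 CPM in S51A. Nars (0.32 ± 0.05) went from 784, 790.5, 763 and 774 CPM to 1011, 1072, 1072 and 1092 CPM in S51, and from 503, 507, 487 and 523 CPM to 543, 575, 523 and 570.2 CPM in S51A. Nars RNA rose past the test in both lines, and by more in S51. Mars1 (0.32 ± 0.05) fell in S51A, and its S51 change did not pass.

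Gars (0.24 ± 0.04), in S51, went from 647, 648, 645 and 635 CPM to 765, 785, 794 and 775 CPM, and in S51A from 424, 430.5, 434 and 443 CPM to 442, 451, 435 and 446 CPM. Cars, for cysteine, had a difference of 0.17 ± 0.05 and in S51 went from 224, 216, 213 and 209.8 CPM to 255, 257, 259 and 254 CPM, with 165, 163, 152 and 161 CPM and 169, 176, 161 and 169 CPM in S51A. These differences were smaller, and both genes were apart by treatment in S51 only. For Dars (0.16 ± 0.04), the aspartyl enzyme, the S51 libraries held 196, 196, 192 and 197 CPM with vehicle and 202, 205, 209.8 and 200.5 CPM with bortezomib, and the S51A libraries 193, 181, 179 and 187 CPM and 176, 172, 175 and 169 CPM. Sars (0.15 ± 0.05) held 263, 275, 272 and 266 CPM and 302, 322, 315 and 315 CPM in S51, and 183, 187, 179 and 179.9 CPM and 193, 203, 185 and 186 CPM in S51A. Qars (0.20 ± 0.06) and Aars (0.14 ± 0.05) rose in both lines, and their values stand above. Sars and Aars were close to the threshold, and lost the call in 9 and 14 of 22 alternatives.

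The exception among mitochondrial enzymes was Hars2, the only one of 17 whose RNA response differed, beside 9.58% of all genes lower and 12% higher. It held 44.5, 46.4, 44.6 and 47.8 CPM in S51 vehicle and 35.6, 39.9, 40.4 and 39.5 CPM in S51 bortezomib, and 46.9, 48.9, 49.8 and 51.9 CPM and 47.2, 47.3, 48.6 and 48.5 CPM in S51A. The S51 treated libraries were all below the other 12, and the difference was −0.20 ± 0.07 (adjusted p = 0.0372). This call was lost in 8 of 22 alternatives, among them leaving out replicate 1 of S51 bortezomib, 2 or 4 of S51 vehicle, 3 or 4 of S51A bortezomib, or 1 or 2 of S51A vehicle.

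Translation efficiency, the change in RPF beyond the change in RNA fitted over both kinds of library, separated a few cytosolic enzymes from the rest. In S51, TE fell after bortezomib in 4 of 21 cytosolic members, Qars, Vars, Kars and Sars, and rose in 0 (1 at raw p below 0.05), beside 7.27% of all genes that fell and 2.38% that rose, with a median of −0.02. Of 17 mitochondrial members 0 passed in either direction (2 higher and 0 lower at raw p below 0.05). The TE changes of Lars (0.13), Nars (0.01) and Aars (−0.02), whose RPF rose, did not pass. When RPF replicate 2 of S51 vehicle was omitted, 4 cytosolic members fell and 0 rose. Library sizes alone moved the median of all genes to 0.15 and gave 3 cytosolic members that rose and 3 that fell, with the share of increases over all genes going from 24.6% to 74.2%.

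Qars TE changed by −1.10 ± 0.08 in S51 (adjusted p = 4.82e-13), with RPF that fell and RNA that rose. In S51A, where RPF held 184, 181, 186 and 190.2 CPM with vehicle and 153, 162, 167 and 170.2 CPM with bortezomib, the TE change was −0.62 ± 0.07 (adjusted p = 1.16e-07), the only cytosolic one past the test there, while 0 rose (1 at raw p below 0.05). TE changes in S51A passed in 1.24% of all genes that fell and 0.106% that rose, and 0 mitochondrial members passed (2 higher and 0 lower at raw p below 0.05). On library sizes alone the share of increases among all TE calls in S51A went from 7.87% to 18.97%, and Qars was still the cytosolic member called. The difference between lines was −0.48 ± 0.11 (adjusted p = 0.0107), and Qars kept it in all 37 alternatives, the fold thresholds of the study left out. Without RPF replicate 2 of S51 vehicle the S51 change was −1.08 and the difference −0.46 (adjusted p = 0.00785).

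Vars RPF held 529, 765 and 490.4 CPM in S51 vehicle and 440.3, 517, 488 and 492 CPM in S51 bortezomib, where the groups overlapped, while its RNA rose. Its TE changed by −0.80 ± 0.12 in S51 (adjusted p = 3.47e-06). In S51A Vars RPF stood at 401, 413, 400.1 and 391 CPM and 347, 350.4, 348 and 386 CPM, and the TE change was −0.15, not past the test. The difference between lines was −0.65 ± 0.16 (adjusted p = 0.0232). It did not pass with a block for the lysate from which RPF and RNA came (−0.62, adjusted p = 0.0818) or on library sizes alone (−0.58). Replicate 2 of S51 vehicle held the highest Vars value, and without that RPF library the TE change was −0.58 and the difference −0.43 (adjusted p = 0.00568). Qars and Vars were the 2 cytosolic members with a TE difference between lines, both lower, with 0 higher (0 at raw p below 0.05), and 0 mitochondrial members had one (0 at raw p below 0.05), beside 1.5% of all genes lower and 0.223% higher. With RPF replicate 2 of S51 vehicle left out, Kars (−0.40, adjusted p = 0.00769) joined them. On library sizes alone 1 cytosolic member was called, and the share of higher among all calls went from 12.96% to 31.7%.

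Lysyl-tRNA synthetase Kars, a member of the complex like Qars, held 525, 442 and 486 RPF CPM in S51 vehicle and 421, 406, 396 and 418 CPM in S51 bortezomib. Its RNA ran from 312, 331, 322 and 324 CPM to 371, 397, 375 and 385 CPM. The RPF fell (−0.24) and the RNA rose (0.24), each without overlap, and the TE change was −0.49 ± 0.08 (adjusted p = 2.51e-05). Sars TE changed by −0.35 ± 0.09 (adjusted p = 0.00679) with RPF at 389, 384, 350.3 and 397 CPM in S51 bortezomib against the vehicle values above. When RPF replicate 2 of S51 vehicle was omitted, the Kars changes were −0.30 in RPF (adjusted p = 0.00165) and −0.54 in TE (adjusted p = 8.99e-08), and the Sars TE change was −0.30 (adjusted p = 0.0113).

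**Figure D5:**
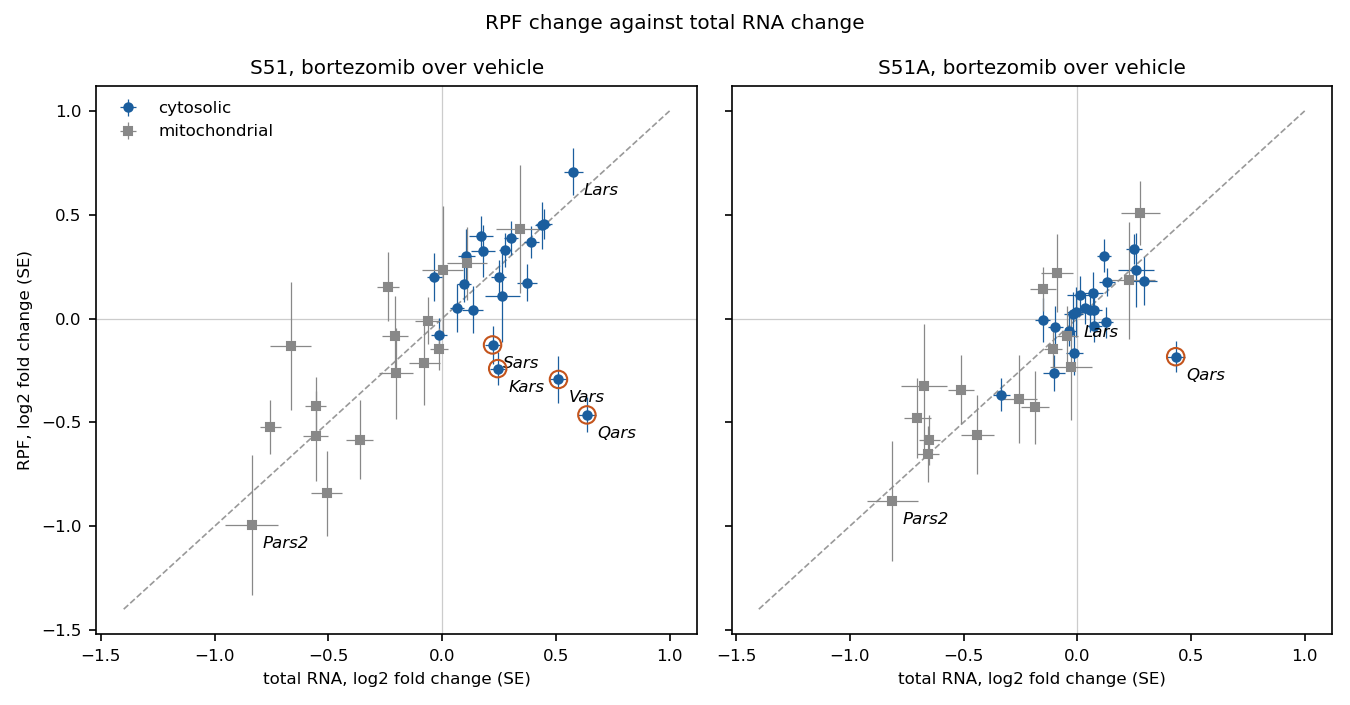
Log2 change after bortezomib in RPF (vertical axis) against total RNA (horizontal axis) for the synthetases, 1 mitochondrial member left out, by compartment, in S51 and in S51A, with the line of equal change. Qars lies furthest below the line in S51, with RNA at 0.64 and RPF at −0.46, and Vars and Kars lie below it too.

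Genes that work with the synthetases were taken from a list of 15 that holds complex scaffolds, transfer RNA export, editing and the elongation factor that receives charged transfer RNA. In S51, RPF fell in 4 of them and rose in 0 (0 at raw p below 0.05; median −0.11), beside 16% of all genes that fell and 14.8% that rose. Total RNA rose in 3 and fell in 6, beside 29.7% of all genes that rose and 30.2% that fell. The elongation factor Eef1a1, which carries aminoacyl-tRNA to the ribosome, had RPF lower by a log2 change of −1.57 ± 0.08 although its RNA rose by 0.64 ± 0.04. The D-aminoacyl-tRNA deacylase Dtd2 fell in RPF (−1.39) and in RNA (−0.93), as did Pstk (−0.82 and −0.64), a kinase on the route to selenocysteine. Mtfmt, which formylates mitochondrial initiator transfer RNA, fell in RPF (−0.78), and Gatc, a subunit of the mitochondrial amidotransferase, in RNA (−0.62). Without RPF replicate 2 of S51 vehicle the RPF count was again 4, with Eef1a1 at −1.65, Dtd2 at −1.28, Pstk at −0.76 and Mtfmt at −0.73.

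Among 21 other genes commonly listed as Atf4 targets, of which 20 were tested in RPF, 11 rose in RPF after bortezomib in S51 (median 0.29) and 17 rose in total RNA (median 0.38), with 0 falling in either (0 at raw p below 0.05), beside 14.8% and 29.7% of all genes that rose. In S51A 2 rose and 2 fell in RPF, near the 9.25% and 11.4% of all genes, and 8 rose and 4 fell in total RNA, where 27.5% of all genes rose and 28.9% fell. The response itself was higher in S51 for 2 of these genes in RPF and for 17 in total RNA, beside 1.04% and 12% of all genes. With RPF replicate 2 of S51 vehicle left out, where all 21 were tested, 12 rose in RPF in S51 and the response was higher for 6. The largest increases were in the stress regulators Ddit3 (2.94 in RPF and 1.64 in RNA), Ddit4 (2.52 and 2.56), Sesn2 (1.85 and 2.04) and Nupr1 (1.25 and 1.41), with RPF changes of 3.11, 2.70, 1.99 and 1.61 in that order without the same library. In vehicle, 17 of these 20 were lower in S51A RPF and 1 was higher (median −0.88, and −0.62 without that library with the same counts), where 13.8% of all genes were lower and 14.8% higher, beside 11 of 13 of the synthetases so listed (median −0.56). Atf4 itself held 174 to 212 RPF CPM in S51 vehicle and 506 to 538 CPM in S51 bortezomib, without overlap (1.46 ± 0.12, adjusted p = 3.25e-09). In S51A its RPF ran from 107 to 151 CPM with vehicle and from 108 to 141 CPM with bortezomib, and its change was 0.06 ± 0.11. When RPF replicate 2 of S51 vehicle was omitted, the S51 change was 1.44 and the vehicle difference −0.60. Atf4 RPF and RNA in vehicle were both lower in S51A, each by a log2 difference of −0.58.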

How the data were processed

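RPF and total RNA were sequenced from S51 and S51A cells given vehicle or bortezomib. The tables hold raw counts per gene as deposited by the authors, and the submitters' processing notes name Bowtie2, featureCounts, DESeq2 and mm10. By the study's methods reads were counted over regions of each transcript defined with plastid, and RPF analysis used the coding sequence without its ends; the notes give featureCounts no role. The column names add that ribosomal reads and repeats were removed, duplicates marked and uniquely mapping reads kept, and that repeated runs of total RNA were merged. Each column was tied to a sample by its name together with the series note on exchanged titles, and 0 columns were left unmapped.

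Genes were kept by edgeR's filter on low counts, scaled by trimmed mean of M-values, and fitted with the quasi-likelihood test in 1 model over all 4 groups per kind of library (R 4.3.3, edgeR 4.0.16, limma 3.58.1), with Benjamini-Hochberg adjustment over all genes tested and a threshold of 0.05. TE was tested as an interaction in 1 model over both kinds of library. Errors of log2 values are standard errors and other errors are SD. The edgeR fits of RPF, total RNA and TE were tested on simulated data, and the other steps were not. DESeq2 1.42.0, other filters and scalings, a replicate block, a fit on the compared groups alone and leaving out each library were tried as alternatives. So were the fold thresholds of the study (1.5 for RPF and TE, 2 for total RNA). These thresholds are left out of counts of alternatives for single members. Shares, levels and the gene lists without RPF replicate 2 of S51 vehicle were added after the data were seen. The members, the gene lists and the motif were chosen with earlier results of these data known, and the lists of Atf4 targets and partners come from general knowledge.

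The members named are those with the largest change past the test in each comparison, 3 cytosolic and 2 mitochondrial, and all that passed in the difference of responses. Kars and Sars in TE, the members in counts of 5 or fewer, and members that missed a threshold were named after their values were seen. The chi-square between replicates was at least 1.66 per gene over 21 RPF pairs and 2.78 over 24 total RNA pairs, so no library was counted as a repeat of another. The values of 1 mitochondrial member and 1 match of the motif are not reported here; both are in the counts.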

Additional observations from a re-analysis of the deposited data

Results flagged for a closer look

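In 16 of 259 groups of 4 libraries, those of every member reported here, the highest or lowest value lay far from the rest by Dixon's test at the 95% level, which chance alone does in about 1 in 20 groups. In RPF these were Aars2 in S51 bortezomib replicate 1 (14.6 CPM, nearest other 21.2), Lars in the same library (587 CPM, nearest 687), Cars2 in S51A bortezomib replicate 1 (23.2 CPM, nearest 18.6), Nars in S51A vehicle replicate 3 (618 CPM, nearest 662), Sars2 in S51A bortezomib replicate 3 (17.7 CPM, nearest 16.1) and Vars in S51A bortezomib replicate 4 (386 CPM, nearest 350.4). In total RNA they were Dars in S51 vehicle replicate 3 (192 CPM, nearest 196), Wars in the same library (47.4 CPM, nearest 51.5), Wars2 in S51 vehicle replicate 2 (21.6 CPM, nearest 23.7), Farsa in S51A vehicle replicate 2 (56.8 CPM, nearest 62.2), Iars in S51A vehicle replicate 4 (81.2 CPM, nearest 71.0), Rars in S51 bortezomib replicate 2 (250.1 CPM, nearest 257), Vars2 in S51 bortezomib replicate 1 (46.6 CPM, nearest 41.5), Qars in S51 bortezomib replicate 2 (193 CPM, nearest 180.1), Wars in S51A bortezomib replicate 4 (52.0 CPM, nearest 45.3) and Yars in S51A bortezomib replicate 2 (51.9 CPM, nearest 45.6).

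The response to bortezomib differed between S51 and S51A by edgeR's interaction test in 18 member results. As S51 minus S51A on the log2 scale, the RPF differences were 0.68 for Lars and 0.44 for Tars, and the TE differences were −0.48 for Qars and −0.65 for Vars. In total RNA they were 0.59 for Lars, 0.53 for Vars, 0.47 for Iars, 0.38 for Eprs, 0.34 for Tars, 0.32 for Nars, 0.32 for Mars1, 0.24 for Gars, 0.20 for Qars, 0.17 for Cars, 0.16 for Dars, 0.15 for Sars, 0.14 for Aars and −0.20 for Hars2.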

How the results depend on the processing

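Of 204 member results past the test, 48 were lost and 3 reversed under at least 1 alternative, the fold thresholds of the study left out. The 3 that reversed were in the S51 total RNA response on library sizes alone: Farsb (−0.047), Farsa (−0.019) and Hars (−0.057). RPF libraries were several times shallower than total RNA. Leaving out 1 library at a time, members past the test ranged in RPF from 1 to 3 for the cytosolic difference of responses, 1 to 4 for the mitochondrial genotype difference with bortezomib, 3 to 6 for the mitochondrial S51 response, 2 to 6 for the mitochondrial genotype difference with vehicle and 2 to 6 for the mitochondrial S51A response, in TE from 0 to 1 for the mitochondrial S51 response, and in total RNA from 0 to 1 for the mitochondrial difference. Fitted on the compared groups alone, RPF counts were 2 for the mitochondrial S51 response, 2 for the mitochondrial genotype difference with vehicle and 7 for the cytosolic S51A response. Without the filter the cytosolic RPF difference had 1 and the mitochondrial total RNA difference 0. DESeq2 gave 3 for the mitochondrial RPF response in S51A. Library sizes alone gave 1 for the cytosolic TE difference and 2 for the mitochondrial TE response in S51. With the fold thresholds of the study, RPF counts for cytosolic and mitochondrial members were 11 and 2 (genotype, bortezomib), 6 and 1 (genotype, vehicle), 1 and 2 (S51 response), 0 and 3 (S51A response) and 1 cytosolic in the difference. TE counts were then 2 in the cytosolic S51 response and 1 in the cytosolic difference. Total RNA kept 2 cytosolic members in the genotype difference with bortezomib and 0 in every other count, since few differences reached 2-fold. Other causes were not tested.

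Replicate numbers are shared between groups, and the main fits did not take them as pairs. Same-numbered libraries correlated at −0.158 to 0.261 in RPF (median 0.0325) and 0.00213 to 0.191 in total RNA (median 0.0922), all positive in total RNA. Correlations between libraries with different numbers were not computed, so these values do not show whether the numbers are pairs. With a replicate block the counts of calls were 2 in the cytosolic RPF difference, 7 higher and 3 lower in the cytosolic RPF response of S51, and 14 in the cytosolic total RNA difference, and the only member result lost was Aars2 in vehicle (−0.56, adjusted p = 0.0506). A block for the lysate shared by RPF and RNA (correlations −0.056 to 0.346) left 1 cytosolic TE difference, as Vars was lost (−0.62).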
